A study of Mus musculus with 4 samples.

Results

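Renal gluconeogenesis and glucose reabsorption were followed through 10 genes in mouse kidney, taken from the arrays by gene name with every probe of each gene. They were the enzyme genes G6pc, Pck1, Fbp1 and Pcx, the glucose 6-phosphate carrier gene Slc37a4, the glucose transporter genes Slc5a1, Slc5a2 and Slc2a2, and the regulator genes Foxo1 and Ppargc1a. They had 14 of the 56605 probes on the array, and all 10 had a probe well above background on all 4 arrays, among 24638 genes kept. Kidneys came from ICR mice, an outbred strain, 1 day after an injection of saline or of vancomycin, a glycopeptide antibiotic. Injections were given at zeitgeber time (ZT) 2 or 14, in hours, which is early in the light phase or early in the dark phase of the usual light cycle. This made 4 groups of 1 single-colour array each, listed below as saline then vancomycin for ZT2, followed by the same pair for ZT14. Dose, sex, age, feeding state and the number of animals behind each array are not given in the sources used here. With no replicates, a difference of 2 arrays is a value with no test.

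The kidney makes glucose as well as recovering it, and both happen in the proximal tubule. Lactate and glutamine enter through pyruvate and oxaloacetate, which pyruvate carboxylase (Pcx) and cytosolic phosphoenolpyruvate carboxykinase (Pck1) carry towards sugar phosphates. Fructose 1,6-bisphosphatase (Fbp1) and glucose 6-phosphatase (G6pc) complete the path, the latter inside the endoplasmic reticulum, which its substrate enters by Slc37a4. Filtered glucose is taken up with sodium, mostly by SGLT2 (Slc5a2) in the early proximal tubule and then by SGLT1 (Slc5a1) further along, and leaves the cell towards blood by GLUT2 (Slc2a2). FOXO1 and its coactivator PGC-1 alpha (Ppargc1a) are known to drive transcription of gluconeogenic genes when insulin is low.

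Signals are given relative to the 75th percentile of the array, so that 1 is the level of a probe at that percentile. Probes bind their targets with different strength, so levels of different genes are not compared. The share of spots well above background lay between 60.6% and 64.7%, no spot was saturated (0 on each array), and replicate spots of a probe had a median SD of 0.043 to 0.051 on the log2 scale, which is technical spread within an array. Each probe of the 10 genes had 1 spot. The arrays lay on 2 slides, with both ZT2 samples on a single slide and both ZT14 samples on the other, and the effect of slide cannot be told apart from that of injection time. Saline held the same array position on either slide and vancomycin another, so treatment cannot be told apart from position. Kidney identity was plain: 7 of 7 shared proximal tubule markers and 4 of 4 markers of the loop, distal tubule and collecting duct were well above background on all 4 arrays. In whole kidney RNA, fewer cells of a type and less RNA per cell cannot be told apart.

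G6pc was higher with vancomycin than with saline at ZT2, and no other member differed by 2-fold in its brightest probe. G6pc was 3.35-fold higher at ZT2, Slc5a2 at ZT14 was 1.70-fold lower, and the other 8 genes stayed within -0.21 to 0.50 on the log2 scale at either time. At ZT2, 1 of 10 members was higher by 2-fold or more and 0 were lower, where 1.96% of all 23082 genes measured were that much higher and 3.86% that much lower. At ZT14, 0 of 10 passed 2-fold in either direction, where 1.6% of 23975 genes were higher and 2.85% lower by that much. The median log2 difference of the members was 0.13 at ZT2 and -0.17 at ZT14, beside 0.00 and 0.01 over all genes. Their median size regardless of sign was 0.17 and 0.21, beside 0.21 and 0.19 over all genes. The typical difference of a member was thus close to that of a gene in general.

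Over both times, limma with treatment and injection time as terms called 0 of 10 members and 0 of 24638 genes for vancomycin at an adjusted p of 0.05. At an unadjusted p under 0.05 there were 2107 genes (8.55%), of which 0 were members. Among members the smallest Benjamini-Hochberg adjusted p over all genes was 0.65, for Slc5a1. This fit has 1 residual degree of freedom, joined by a prior of 1.86 taken from all genes. Its SE thus mixes how far the changes of a gene at the 2 times differed with a prior spread over all genes. It does not measure a spread between animals.

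**Figure D1:**
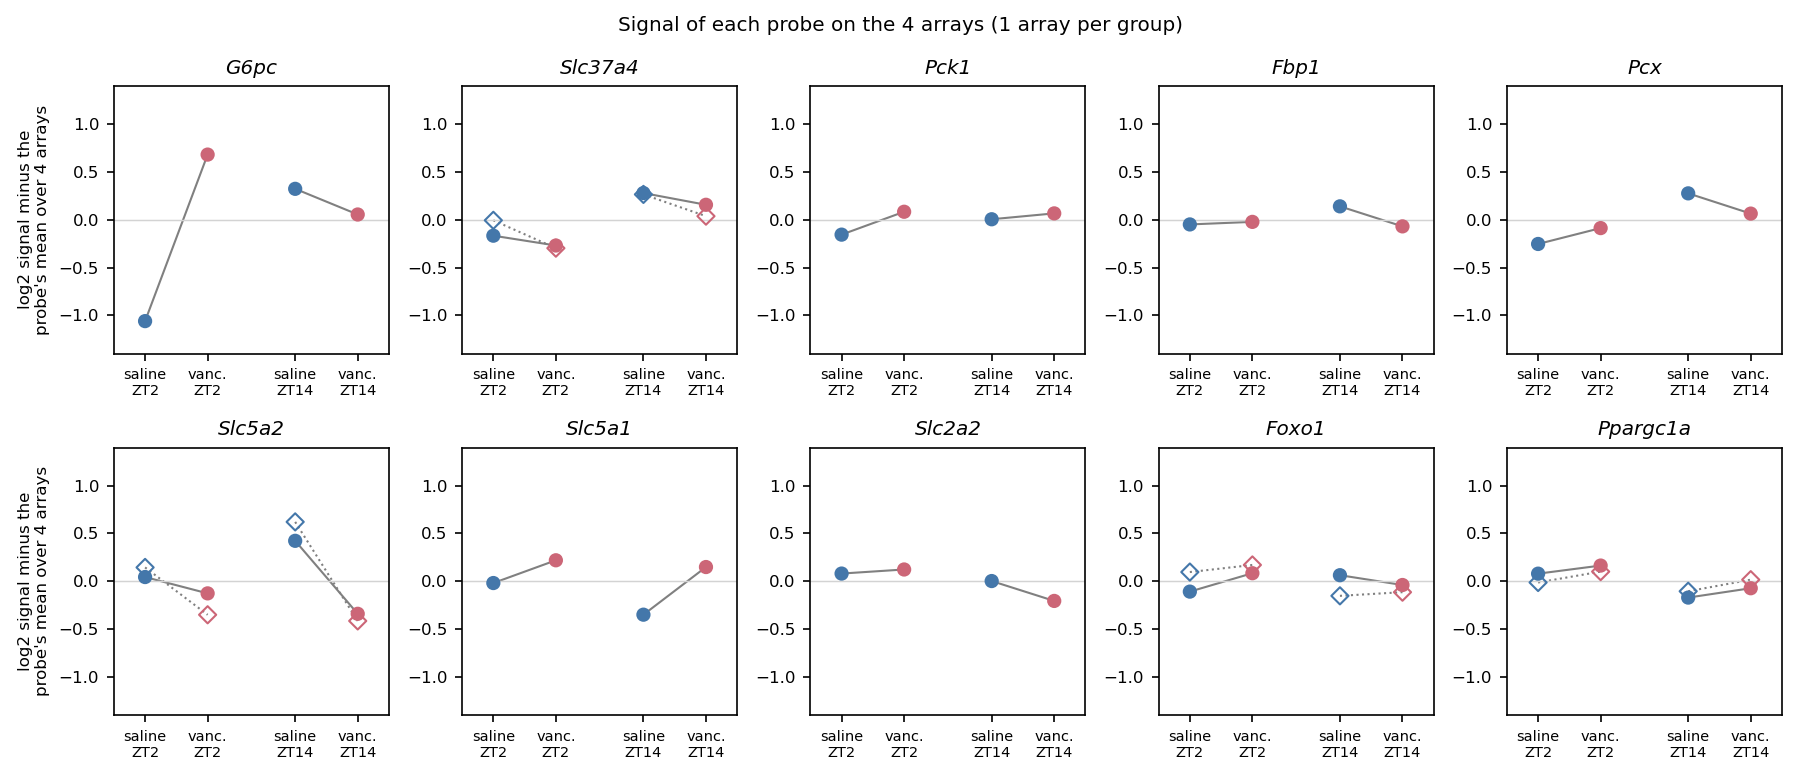
Log2 signal of each probe of the 10 genes on the 4 arrays, minus that probe's own mean over the arrays (vertical axis), by group (horizontal axis). Filled circles are the brightest probe of a gene and open diamonds its other probe; blue is saline, red is vancomycin, and lines join the 2 arrays of a slide. G6pc stands apart through its low point on the saline ZT2 array, and both Slc5a2 probes are lowest on the 2 vancomycin arrays.

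G6pc encodes the catalytic subunit of glucose 6-phosphatase, which releases free glucose. Its relative signal was 23.9 with saline at ZT2, 80.0 with vancomycin at ZT2, 62.4 with saline at ZT14 and 51.8 with vancomycin at ZT14. The saline ZT2 array was thus the low one, and the other 3 lay between 51.8 and 80.0. The vancomycin difference was 1.74 on the log2 scale at ZT2, and 78 other genes (0.338% of 23082) were higher by at least as much. In either direction, 1.71% of genes differed at least as far, G6pc included. At ZT14 it was -0.27, a 1.21-fold lower signal. The effect at ZT14 minus that at ZT2 was -2.01, which could not be tested with 1 array per group. Between injection times, G6pc was 2.62-fold higher at ZT14 in saline kidneys (log2 difference 1.39) and 1.54-fold lower at ZT14 in vancomycin kidneys (-0.63). Over both times the vancomycin change was 0.74 ± 0.61 (SE, n = 2 arrays per treatment, limma, adjusted p = 0.79). The single G6pc probe lay at chr11:101238947-101239006 in mm9, the genome build of the deposited probe positions; no mm9 annotation was used, so exon or UTR positions of probes are not given.

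Markers of other tissues also differed between the ZT2 arrays. Of 10 adrenal markers, 6 were 2-fold or more higher with vancomycin at ZT2 and 6 at ZT14. The 9 that at least 1 array measured above background had a summed relative signal of 0.676, 6.49, 0.725 and 1.32 in the order of groups above. The steroid synthesis gene Cyp21a1 had 0.0630, 2.65, 0.139 and 0.364. Cyp11b1, Cyp11a1, Hsd3b1 and Chga also passed 2-fold at both times, Star at ZT2 and Dbh at ZT14. Cyp11b1, Cyp11a1, Chga and Dbh were not well above background on the saline arrays, so their vancomycin differences are lower bounds. The bound of Dbh at ZT2 was 0.73, and the authors' values gave 1.68. At ZT14 the authors' values gave 3.91 for Cyp11b1 and 3.10 for Cyp11a1, against bounds of 1.91 and 1.30. With normexp, the ZT14 differences of Cyp11b1, Cyp11a1, Hsd3b1, Chga and Dbh were 0.91, 0.60, 0.72, 0.97 and 0.27, under 2-fold, and the mean over probes of Cyp21a1 gave 0.86. Th differed by 0.78 and -0.06, and Pnmt by 0.54 and 0.26. Mc2r, the corticotropin receptor gene, was not well above background on any array. Among 6 hepatocyte markers, a cell type with high G6pc, the summed signal was 5.01, 5.70, 10.6 and 7.69, and the markers differed in both directions. At ZT2 the albumin gene Alb differed by 1.75, Apob by 0.47, Tat by 0.45, Apoa2 by 0.22, Serpina1a by -0.21 and Ttr by -0.79. At ZT14 Serpina1a differed by -1.42, and the other 5 stayed under 2-fold. The part of other tissues in the G6pc values was not tested.

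The upstream sequences of G6pc and Pck1 are shown because both genes are textbook targets of the same fasting signals, while only G6pc differed by 2-fold here. They are the 250 bases before the RefSeq start site in GRCm38.p6, read on the sense strand, at chr11:101367466-101367715 and chr2:173152823-173153072. Capitals mark matches, on either strand, to a CRE half-site (TGACG), an insulin response core (TGTTTTG) and an HNF1 half-site (GTTAAT). The full CRE (TGACGTCA), a forkhead site (TGTTTAC) and a full HNF1 site (by name) were also searched, and no letters of these were found in the 2 windows.
G6pc: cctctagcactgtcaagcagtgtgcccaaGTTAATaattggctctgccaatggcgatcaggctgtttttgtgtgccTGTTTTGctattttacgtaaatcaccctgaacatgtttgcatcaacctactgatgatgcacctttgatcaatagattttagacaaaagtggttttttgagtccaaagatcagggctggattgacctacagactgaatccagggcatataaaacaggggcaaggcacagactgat
Pck1: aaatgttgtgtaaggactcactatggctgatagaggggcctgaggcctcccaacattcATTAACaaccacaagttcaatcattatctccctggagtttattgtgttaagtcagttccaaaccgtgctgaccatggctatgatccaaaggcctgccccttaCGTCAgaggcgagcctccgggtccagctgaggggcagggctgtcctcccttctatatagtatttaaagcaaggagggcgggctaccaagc
The G6pc window held the insulin response core, bound by FOXO factors, with its first base at -174, and the HNF1 half-site at -221. The Pck1 window held a CRE half-site, bound by the CREB family, at -90, and an HNF1 half-site at -192. Over 32851 promoter windows of this length in the RefSeq table, 5.56% held the insulin response core, 17.8% the CRE half-site and 6.43% the HNF1 half-site. A match is a run of letters and not evidence of binding in these kidneys. Sites outside the 250 bases and variants of these letters were not searched, so a site absent here may still be present in either gene. A link between these sites and the G6pc values was not tested.

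Pck1, which makes phosphoenolpyruvate from oxaloacetate, was nearly level over the 4 arrays. Its relative signal was 144 and 170 with saline and vancomycin at ZT2, and 161 and 168 at ZT14. The vancomycin differences were 0.24 and 0.05 on the log2 scale, against 1.74 and -0.27 for G6pc. Pck1 is also active in fat cells, and fat markers did move between arrays. The 8 markers had a summed relative signal of 42.6, 19.3, 9.42 and 11.0 (8 of 8 measured). Fabp4 alone had 19.8, 11.6, 8.43 and 9.98, which is most of the sums at ZT14. Cfd had 15.5, 5.10, 0.162 and 0.156, and Cidec 3.91, 1.17, 0.109 and 0.0738. Lep and Lipe were instead higher at ZT14 than at ZT2 with either treatment. At ZT2, 5 of 8 were lower by 2-fold or more with vancomycin (Adipoq, Plin1, Cidec, Retn and Cfd), while Fabp4 differed by -0.77, Lep by 0.23 and Lipe by 0.32. Plin1 was under 2-fold with normexp (-0.65) and as a mean over probes (-0.82). The adiponectin gene Adipoq was well above background on the 2 ZT2 arrays only. The part of fat cells in the Pck1 values was not tested. The Pck1 probe lay at chr2:172984307-172984366 in mm9.

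Fbp1, which removes a phosphate from fructose 1,6-bisphosphate, had relative signals of 214 and 218 at ZT2 and 244 and 211 at ZT14, saline first. Its vancomycin differences were 0.02 and -0.21. Pcx, the mitochondrial enzyme that feeds pyruvate into the path, had 42.6 and 47.8 at ZT2 and 61.5 and 53.1 at ZT14, with differences of 0.17 and -0.21. The highest value of Pcx and Fbp1 was thus on the saline ZT14 array, and vancomycin kidneys of that time were 1.16-fold lower for both. For Fbp1 the place of the highest value depended on the processing. Its ZT14 minus ZT2 in saline kidneys was 0.19, but -0.41 with the authors' values and -0.38 with quantile normalization. In vancomycin kidneys that difference was -0.05, but -0.64 and -0.60 in these alternatives. The Fbp1 probe lay at chr13:62966175-62966234 and that of Pcx at chr19:4621610-4621669.

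Slc37a4, the carrier that brings glucose 6-phosphate to G6pc, differed more between injection times than between treatments by its brighter probe. That order depended on the scaling. Its brighter probe had relative signals of 37.8 and 35.2 at ZT2 and 51.5 and 47.3 at ZT14, so both ZT14 arrays lay above both ZT2 arrays. ZT14 minus ZT2 was 0.45 in saline and 0.43 in vancomycin kidneys. Over both treatments the difference was 0.44 ± 0.14 (SE, n = 2 arrays per time, limma, adjusted p = 0.19), which did not pass. It had an adjusted p of 0.041 by limma with an intensity trend and a robust prior, where 3396 of 24638 genes passed. For the dimmer probe, ZT14 minus ZT2 was 0.27 in saline and 0.33 in vancomycin kidneys. Vancomycin differences at ZT2 and ZT14 were -0.10 and -0.12 for the brighter probe, and -0.29 and -0.23 for the dimmer one. Scaled to the shared proximal tubule markers, the brighter probe gave -0.29 and -0.35 for vancomycin. With that scaling its time differences were 0.18 in saline and 0.21 in vancomycin kidneys, the smaller ones. The probes lay at chr9:44210978-44211037 and chr9:44205736-44205795.

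Slc5a2, the high-capacity glucose transporter of the early proximal tubule, was the member with the lowest vancomycin difference at both times. Its brighter probe, at chr7:135415884-135415943, had relative signals of 66.2 with saline and 58.8 with vancomycin at ZT2, and 86.1 and 50.7 at ZT14. Both vancomycin arrays lay below both saline arrays, by a wider gap at ZT14. The log2 difference was -0.17 at ZT2 and -0.76 at ZT14, and 1125 other genes (4.69% of 23975) were lower by at least as much at ZT14. In either direction, 7.87% of genes differed at least as far at ZT14, Slc5a2 included. The dimmer probe, at chr7:135412649-135413454, had 2.58 and 1.83 at ZT2 and 3.59 and 1.75 at ZT14, with log2 differences of -0.50 and -1.04, so only this probe passed 2-fold. Over both times the brighter probe gave -0.47 ± 0.22 (SE, n = 2 arrays per treatment, limma, adjusted p = 0.67).

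The dimmer Slc5a2 probe is printed because its value passed 2-fold where that of the brighter probe did not. Its 60 bases cover 806 bases of genome, so it joins sequence from either side of an intron and reads spliced transcript.
Slc5a2 spliced probe: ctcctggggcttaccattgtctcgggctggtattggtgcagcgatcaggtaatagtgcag
Pdzk1ip1, whose product MAP17 is the accessory subunit of SGLT2, had other values: its brighter probe differed by 0.33 at ZT2 and -0.20 at ZT14, and its other probe by 0.31 and -0.23.

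Slc5a1, the high-affinity transporter that recovers the remaining glucose, differed the other way. Its relative signal was 0.390 and 0.460 at ZT2 and 0.310 and 0.438 at ZT14, saline first, so both vancomycin arrays lay above both saline arrays. The log2 differences were 0.24 and 0.50, and over both times 0.37 ± 0.16 (SE, n = 2 arrays per treatment, limma, adjusted p = 0.65). Its probe lay at chr5:33504561-33504620. Of 4 enterocyte markers, a cell type with high Slc5a1, the disaccharidase genes Sis and Lct were not well above background on any array, whereas Fabp2 was on 3. Vil1, which kidney tubules also express, was on 4, at a relative signal of 16.7 or more. Slc2a2, the exit route for glucose on the blood side, had 0.833 and 0.858 at ZT2 and 0.789 and 0.683 at ZT14, with differences of 0.04 and -0.21. Its lowest value was on the vancomycin ZT14 array. The spliced Slc2a2 probe lay at chr3:28625253-28625961. Of 4 markers of pancreatic islets, which also use Slc2a2, 3 were above background on some array, with a summed relative signal of 0.249, 0.177, 0.156 and 0.111. The glucagon gene Gcg was well above background on 4 arrays, Iapp on the 2 saline arrays, the insulin gene Ins1 on 1 and Ins2 on none. The part of islet cells in the Slc2a2 values was not tested.

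**Figure D2:**
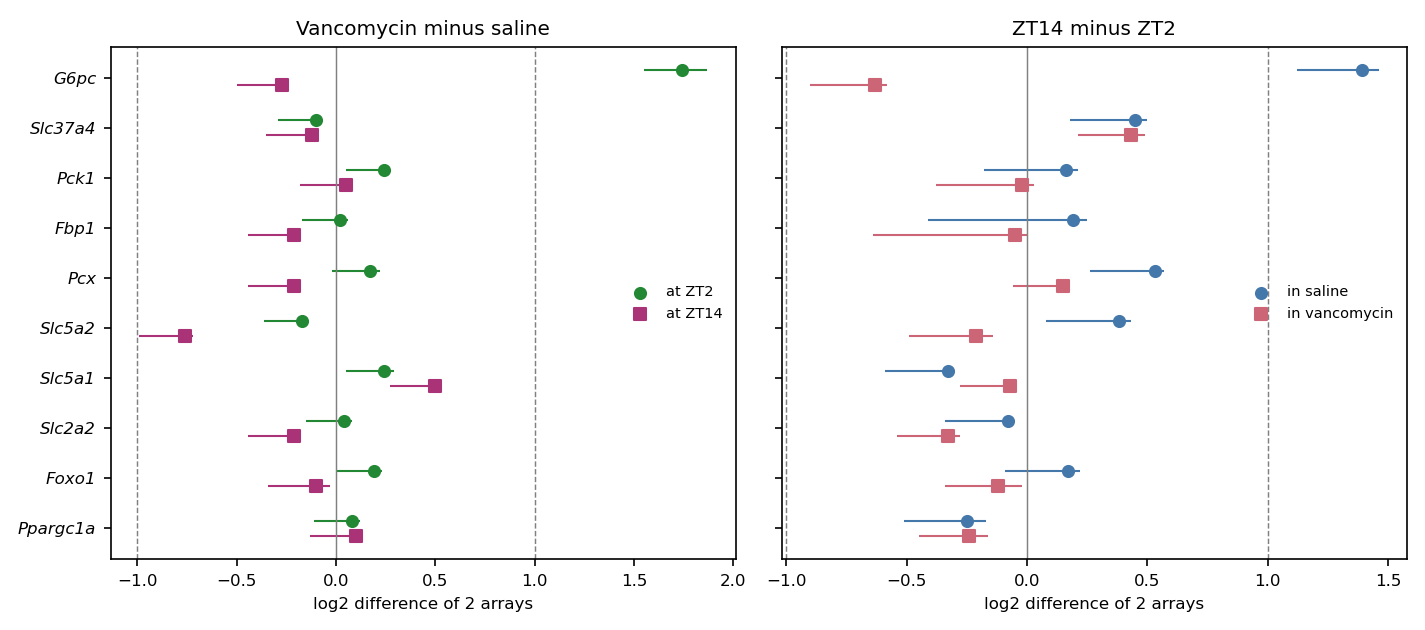
Log2 difference of 2 arrays for each member (brightest probe), vancomycin minus saline in the left panel and ZT14 minus ZT2 in the right. Points are the values reported here, horizontal lines span the 10 alternative processing settings, and dashed lines mark 2-fold. G6pc alone passes 2-fold, at 1.74 with vancomycin at ZT2 and at 1.39 for time in saline kidneys.

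The regulators differed little. Foxo1, a transcription factor that insulin keeps out of the nucleus, had relative signals of 4.27 and 4.88 at ZT2 and 4.81 and 4.48 at ZT14. Its vancomycin differences were 0.19 and -0.10, whereas its other probe gave 0.08 and 0.04, so the probes disagreed in sign at ZT14. Ppargc1a had 6.28 and 6.66 at ZT2 and 5.28 and 5.65 at ZT14, so both ZT14 arrays lay below both ZT2 arrays. Its vancomycin differences were 0.08 and 0.10, and ZT14 minus ZT2 was -0.25 in saline and -0.24 in vancomycin kidneys (limma over both treatments -0.24 ± 0.14, SE, n = 2 arrays per time, adjusted p = 0.34). These are RNA levels, and the location or modification of the proteins was not measured. The brighter probes lay at chr3:52150946-52151005 and chr5:51848928-51848987, and the others at chr3:52153289-52153348 and chr5:51849419-51849478.

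In direction, 3 members were higher with vancomycin at both times (Pck1, Slc5a1 and Ppargc1a), 2 were lower at both (Slc37a4 and Slc5a2) and 5 had opposite signs (G6pc, Fbp1, Pcx, Slc2a2 and Foxo1). Over all genes measured, 49.9% were higher with vancomycin at ZT2 and 51.2% at ZT14. The share of all genes with opposite signs was not counted, so 5 of 10 is not read as particular to the members. Scaled to the shared proximal tubule markers, Fbp1, Pcx, Slc2a2 and Ppargc1a turned sign at ZT2 and Pck1 and Ppargc1a at ZT14. The median of these markers was itself 0.19 higher with vancomycin at ZT2 and 0.23 at ZT14. Between injection times, 1 of 10 members passed 2-fold in saline kidneys, G6pc on the higher side, where 8.37% of 24167 genes were higher and 3.46% lower by that much (11.8% in all). In vancomycin kidneys 0 of 10 passed, where 9.42% of 23360 genes were higher and 3.26% lower (12.7% in all). Comparisons that share an array, such as vancomycin against saline at ZT2 and ZT14 against ZT2 in saline, are not independent, and the low G6pc value of the saline ZT2 array enters both.

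The segments of the proximal tubule gave a mixed picture beside Slc5a2 and G6pc. The 7 shared markers, among them the endocytic receptor genes Lrp2 and Cubn and the phosphate transporter gene Slc34a1, had vancomycin differences with 0 of 7 past 2-fold at either time and a summed relative signal of 853, 919, 1030 and 1170. Of 3 markers of the S1 and S2 segments, the amino acid transporter gene Slc7a7 had 43.0 and 39.9 at ZT2 and 57.9 and 33.1 at ZT14, with differences of -0.11 and -0.81. These lay near those of Slc5a2, -0.17 and -0.76. Slc5a12, a lactate carrier gene named after its values were seen, had -0.10 and -0.82. Its list of 20 substrate supply genes did not share this, with 16 higher and 4 lower with vancomycin at ZT14. Slc5a8, of the same list, had -0.07 and 0.66. The organic anion transporter gene Slc22a8 had 10.1, 26.9, 20.4 and 16.1 in the order of groups above, again with its low point on the saline ZT2 array, and differed by 1.41 and -0.35. Gatm, the creatine pathway gene, differed by 0.26 and 0.25. Of 4 S3 markers, where Slc5a1 is known to act, Slc22a13 was 2.15-fold and 2.12-fold higher with vancomycin (0.91 and 0.85 on the log2 scale, under 2-fold, when scaled to the tubule markers), Slc7a13 differed by 0.12 and 0.51 (its other probe had the opposite sign at ZT2), Slc22a7 by 0.19 and 0.03, and Cyp7b1 by -0.11 and 0.23. Of the other shared markers, Aqp1 differed by 0.26 and 0.25, Slc13a3 by 0.22 and 0.23, Slc22a6 by 0.03 and 0.00, and Slc27a2 by -0.02 and 0.35. Beyond the proximal tubule, Umod differed by 0.31 and 0.15, Slc12a1 by 0.33 and 0.60, Slc12a3 by 0.10 and -0.19, and Aqp2 by -0.33 and 0.65. The part of these segments in the member values was not tested.

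**Figure D3:**
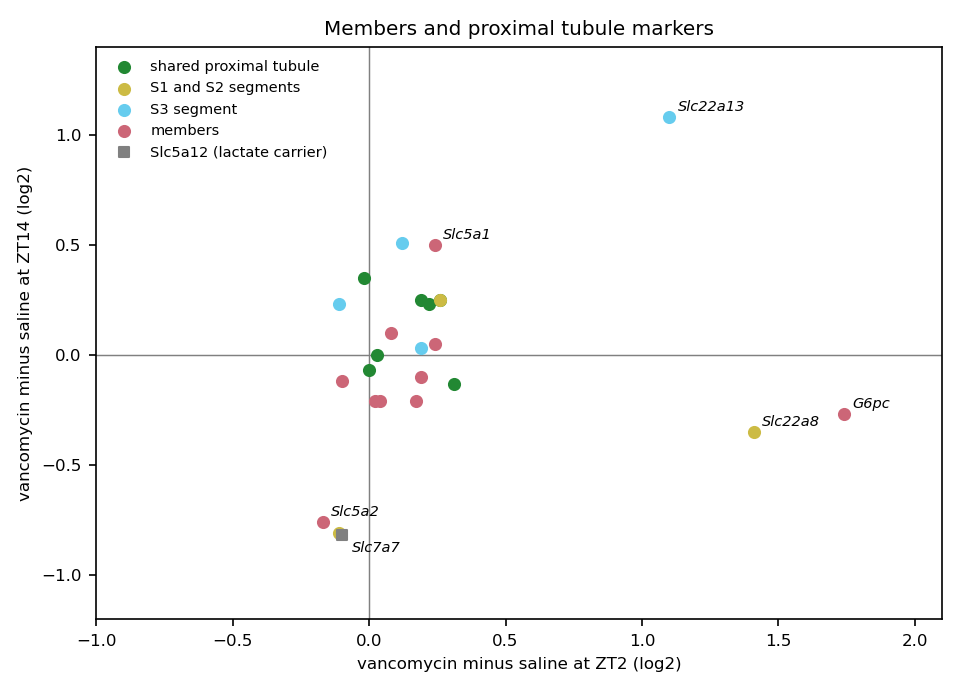
Vancomycin minus saline at ZT14 (vertical axis, log2) against the same at ZT2 (horizontal axis, log2) for the 10 members and for markers of proximal tubule segments, 1 point per gene. G6pc (1.74 and -0.27) lies near Slc22a8 (1.41 and -0.35), and Slc5a2 (-0.17 and -0.76) near Slc7a7 (-0.11 and -0.81) and Slc5a12 (-0.10 and -0.82). Slc5a12 is no segment marker here and was picked after its values were seen.

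The wider pathway differed as little as most members. Of 101 other listed genes of gluconeogenesis, hexose transport, substrate supply, regulation and glycolysis, 97 were measured at ZT2 and 98 at ZT14. At ZT2, 1 was higher by 2-fold or more and 0 were lower, and the one that was higher, Pdk1, did not reach 2-fold as a mean over its probes (0.56). At ZT14, 1 was higher and 1 was lower. That is 1.03% and 2.04% of those measured, beside 5.82% and 4.45% of all genes in either direction. Their median difference was 0.07 at ZT2 and 0.06 at ZT14. By limma 0 of 99 passed for vancomycin over both times when adjusted over all genes, and 5 had an unadjusted p under 0.05.

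**Figure D4:**
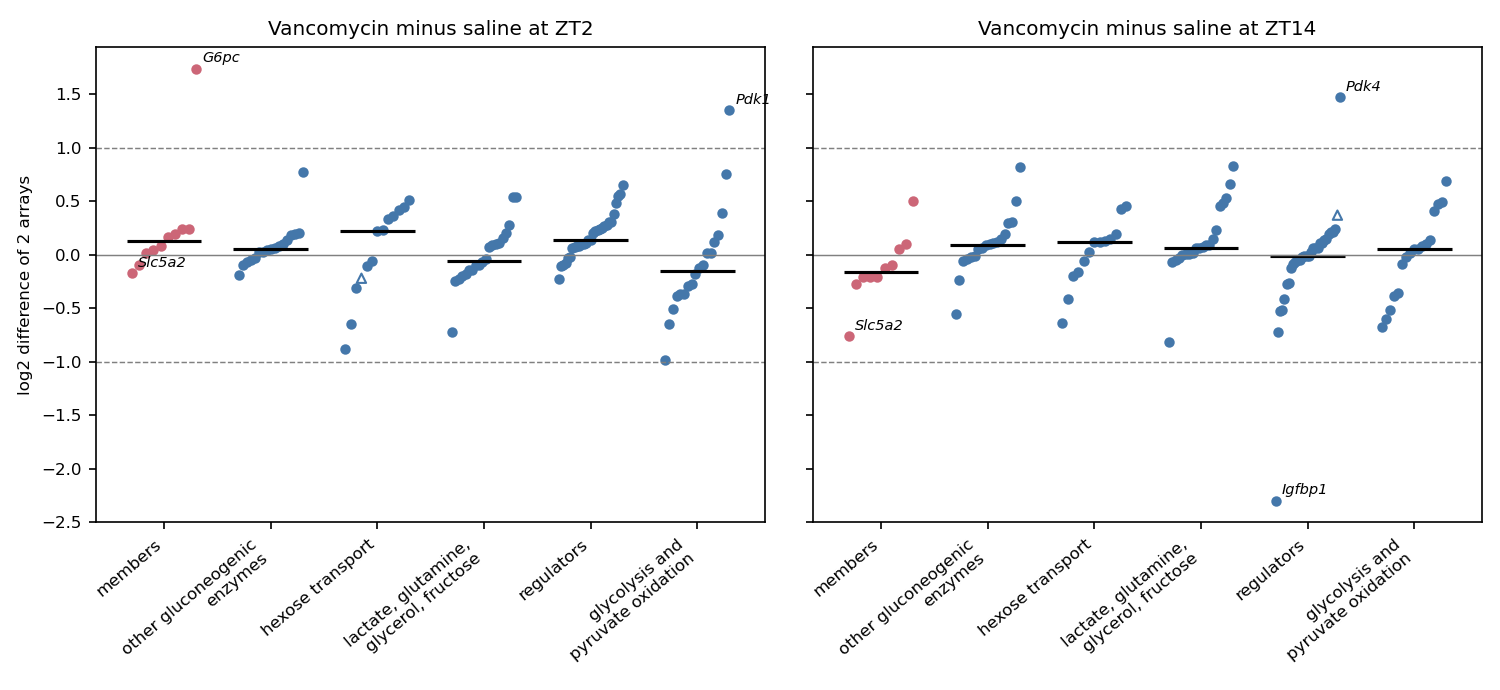
Log2 difference of vancomycin minus saline at ZT2 (left) and ZT14 (right) for each gene of the 10 members (red) and of the 5 other lists (blue), sorted within a list. Black bars are list medians, dashed lines mark 2-fold, and open triangles are bounds for genes well above background on only 1 of the 2 arrays. Labels name the genes past 2-fold and Slc5a2: G6pc and Pdk1 at ZT2, Pdk4 and Igfbp1 at ZT14.

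Among the other gluconeogenic enzymes, 0 of 17 passed 2-fold at ZT2 and 0 of 18 at ZT14. Paralogs of the members also stayed under 2-fold. Pck2, the mitochondrial counterpart of Pck1, differed by -0.10 at ZT2 and -0.55 at ZT14, and its other probe had the opposite sign at ZT2. Fbp2, known from muscle, differed by 0.77 and -0.06. G6pc3, expressed in many tissues, differed by 0.03 and -0.01, with its other probe of opposite sign at both times. G6pc2, the islet form, was well above background on the 2 ZT14 arrays only and differed there by 0.30.

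Of the hexose transporters, 0 of 13 measured passed 2-fold with vancomycin at either time, but Slc2a10 at ZT2 has only a bound. It was at least 1.16-fold lower there, and it gave -1.16 with the authors' values, -1.15 with quantile normalization and -1.04 with the mean over probes. Slc5a9 and Slc5a10, which carry mannose and fructose among other sugars, differed by -0.31 and -0.11 at ZT2 and by -0.64 and 0.43 at ZT14. The other probe of Slc5a9 had the opposite sign at ZT14. Slc2a1, the transporter of more distal segments, differed by 0.45 and 0.15. The fructose transporter gene Slc2a5 had relative signals of 34.2, 18.6, 28.8 and 31.5, so its low value was on the vancomycin ZT2 array, with differences of -0.88 and 0.13. Slc5a10 and Slc2a5 were named after their values were seen. Slc5a4a and Slc5a4b, close relatives of Slc5a1, were not well above background on any array. For time in vancomycin kidneys, Slc5a9 was 2.34-fold lower at ZT14 by its brightest probe, a log2 difference of -1.22, but the mean over its probes gave -0.04. Slc2a10 was at least 2.06-fold higher there (1.04), but this was 0.19 with normexp, 0.66 with a pseudocount and 0.83 when scaled to the tubule markers. Of 20 genes of substrate supply, 0 passed 2-fold with vancomycin, and the lactate transporter gene Slc16a1 was 2.09-fold lower at ZT14 in saline kidneys.

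Among 30 regulators, 0 of 29 measured passed 2-fold at ZT2 and 2 of 30 at ZT14, Igfbp1 and Pdk4. For time, 2 of 29 passed in saline kidneys, Irs2 and Igfbp1, and 2 of 30 in vancomycin kidneys, Igfbp1 and Pdk4, against 11.8% and 12.7% of all genes. Igfbp1, a secreted binding protein that insulin is known to repress, had relative signals of 0.241, 0.299, 0.513 and 0.104, so it was highest with saline and lowest with vancomycin at ZT14. Its vancomycin differences were 0.31 at ZT2 and -2.30 at ZT14, a 4.92-fold lower signal. The latter was -1.60 with normexp. For time Igfbp1 differed by 1.09 in saline kidneys, which several alternatives brought under 2-fold (0.83 scaled to the tubule markers), and by -1.52 in vancomycin kidneys. Pdk4, a kinase that holds pyruvate back from oxidation, had 0.596, 0.885, 0.802 and 2.23, with differences of 0.57 and 1.47, and 1.33 for time in vancomycin kidneys. Irs2, an insulin receptor substrate and a known FOXO target, had 1.68, 2.62, 6.92 and 4.77, and both ZT14 arrays lay above both ZT2 arrays. It was 4.12-fold higher at ZT14 in saline kidneys and 1.82-fold in vancomycin kidneys. G6pc, Igfbp1 and Irs2 were each higher with vancomycin at ZT2 and lower at ZT14 in their values (0.65 and -0.53 for Irs2). Whether they differ together was not tested. Igfbp1 at ZT2 was 0.12 when scaled to the tubule markers. Pck1 (0.24 and 0.05) and Pdk4 were instead higher with vancomycin at both times. Over the regulators as a list, 23 of 29 were higher with vancomycin at ZT2 and 16 of 30 lower at ZT14. The paralogs Foxo3, with 0.25 and -0.05, and Ppargc1b, with 0.27 and 0.15, stayed under 2-fold, and the other probe of Foxo3 measured on both ZT2 arrays had the opposite sign.

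In glycolysis and pyruvate oxidation, 1 of 18 genes passed 2-fold at ZT2 and 0 of 17 at ZT14. Pdk1, a paralog of Pdk4, had 0.716, 1.83, 1.47 and 0.918 and differed by 1.35 and -0.68, with 3 of its 4 measured probes giving the same sign at each time. The mean over its probes gave 0.56 at ZT2, under 2-fold. It was 2.05-fold higher at ZT14 in saline kidneys (1.03), which the mean over probes (0.41) and scaling to the tubule markers (0.77), among others, brought under 2-fold. Hk1, the first enzyme of glucose use in most tissues, was 2.41-fold higher at ZT14 in vancomycin kidneys, with 3 of 4 measured probes in that direction, but the mean over its probes gave 0.32 against 1.27. It differed by -0.29 and 0.08 with vancomycin. For time, limma called 0 of 10 members and 0 of 99 pathway genes over both treatments, among 0 of 24638 genes, while 6710 genes (27.2%) had an unadjusted p under 0.05, of which 0 were members.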

How the data were processed

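Total RNA of 4 kidney samples was labelled with Cy3 and hybridized to Agilent arrays, per the labels' protocols. Per the file headers, Feature Extraction 10.7.1.1 gave the deposited processed signal, an intensity with background subtracted and spatial trends removed, with no normalization between arrays; a version of 9.5.1.1 stands in the submitters' processing notes. Raw mean and background intensities were deposited beside it. The authors' deposited value table, also intensity, has a median of 35.2 in all 4 columns and served as an alternative only, since how its columns were made equal is not given in the sources used here.

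Log2 processed signals were centred on the 75th percentile of each array. Spots marked as not uniform or as outliers were left out, and spots of a probe were averaged. Kept probes had 50% or more of their spots well above background on 1 array or more. The brightest probe stood for a gene. A probe dim on 1 of 2 arrays gives a bound ("at least"), with the lowest signal well above background in its place. Differences of 2 arrays carry no test and are read at 2-fold. limma 3.58.1 in R 4.3.3 fitted treatment and injection time over all 24638 genes with eBayes and Benjamini-Hochberg adjustment; 1 residual degree of freedom was joined by a prior of 1.86. On simulated data the fit was checked for the median size of planted changes. How often such changes were called is not given here. Arrays give no read depth, and their number limits the precision.

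The members and lists were chosen with earlier results of these data known. The naming rule took all members, 9 paralogs of members (Pck2, Fbp2, G6pc3, G6pc2, Foxo3, Ppargc1b, Slc2a1, Slc5a4a and Slc5a4b), Pdzk1ip1, the markers defining each cell type, and in each comparison the pathway genes past 2-fold. Promoter sequences came from a RefSeq table of GRCm38.p6, in which 9 of 10 members had an entry. Alternatives were median centring, quantile normalization, normexp (offset 50), the authors' values, a pseudocount of 16, other filters on dim probes, the mean over probes, all spots kept, other terms and another prior in the fit, and, added after seeing the data, scaling to 7 proximal tubule markers.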

Additional observations from a re-analysis of the deposited data

Results flagged for a closer look

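G6pc had vancomycin differences of opposite sign at the 2 injection times, 1.74 at ZT2 and -0.27 at ZT14, on the log2 scale. Opposite signs were also present for Fbp1 (0.02 and -0.21), Pcx (0.17 and -0.21), Slc2a2 (0.04 and -0.21) and Foxo1 (0.19 and -0.10). With 1 array per group none of these differences between times was tested, and the share of all genes with opposite signs was not counted. Except for G6pc, the values are at or under 0.21 in size, and all but G6pc and Foxo1 took a single sign at both times when scaled to the shared proximal tubule markers.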

How the results depend on the processing

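The counts of members past 2-fold were the same in all 10 alternatives: 1 for vancomycin at ZT2 and 1 for time in saline kidneys, G6pc in each, and 0 for the other 2 comparisons. Other filters on dim probes and keeping all spots could not change these counts. Each probe of the members had 1 spot, already in use, and was well above background on all arrays. The mean over probes could not change G6pc, which has a single probe. G6pc ranged from 1.55 to 1.87 for vancomycin at ZT2 and from 1.12 to 1.46 for time in saline, and Slc5a2 from -0.99 to -0.72 for vancomycin at ZT14. For time, signs of small differences in saline turned in 3 alternatives for Pck1 and for Fbp1 and in 2 for Foxo1, and in vancomycin kidneys in 3 for Pcx and 1 for Pck1; the cause was not tested. By limma, 0 members and 0 genes were called for vancomycin in each alternative fitted (scaling to the tubule markers was not), including the fit without the injection-time term (no replicate block). For time 1 of 10 members, Slc37a4, was called under the prior with a trend on intensity and robust estimation, beside 3396 of 24638 genes. The count of all genes called for time was 0 as reported, 3396 with the trend and robust prior, 3008 with normexp, 1767 with a pseudocount, 1636 with probes well above background on all arrays and 1332 without the treatment term. The reported fit, with injection time as a term, compares treatments within a slide; the labels give no replicate numbers for any other pairing. Leaving out a sample would empty its group, so it was not run. Low signals limit Slc5a1, Slc2a2 and the paralogs more than the bright enzyme genes.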
